A study of Mus musculus with 16 samples.

Results

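The 39 genes described here encode the stress sensors of the endoplasmic reticulum (ER) and the proteins that these sensors and the integrated stress response are known to control. They were taken by gene symbol from a list chosen with earlier results of these data known. All listed genes were kept whatever their values, and all 39 were found among the 23167 gene identifiers present in both deposited count tables. By role they fell into 5 sensors and transcription factors, 15 chaperones and foldases, 7 factors of ER-associated degradation, 4 factors of protein translocation and 8 genes of the integrated stress response. Poly(A) RNA had been sequenced from the livers of 16 mice with floxed alleles of Matr3, which encodes the nuclear RNA-binding protein matrin-3. The groups were 4 floxed males (replicates 1 to 4), 4 males with liver-specific knockout (LKO, replicates 5 to 8), 4 floxed females (1 to 4) and 4 LKO females (5 to 8), with LKO and floxed mice described as littermates in the labels. All 4 groups carried floxed Matr3, and LKO mice also carried Cre recombinase under the albumin promoter, which is active in hepatocytes and leaves the other liver cells untargeted. All 16 mice received a high-fat diet with 60% of its calories from fat for 16 weeks from the age of 7 weeks, and were fasted for 12 hours before the tissue was taken. No library of mice on a chow diet was analysed here, so the libraries do not show how these genes respond to the diet itself.

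Secretory and membrane proteins fold in the ER, and hepatocytes, which make most plasma proteins, depend heavily on this capacity. When unfolded proteins accumulate, the sensors IRE1 (Ern1), PERK (Eif2ak3) and ATF6 start the unfolded protein response, in which spliced Xbp1 and cleaved ATF6 induce chaperones and degradation factors. PERK also phosphorylates the initiation factor eIF2α, which lowers general translation and raises translation of Atf4, and this branch, shared with kinases that sense amino acid shortage, is the integrated stress response. Counts per gene cannot show Xbp1 splicing, cleavage of ATF6 or phosphorylation of eIF2α, so the values below are transcript levels only.

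As a check of the labels, Matr3 levels of the knockout and floxed livers did not overlap in either sex. Matr3 lay between 53.6 and 61.7 CPM (counts divided by library size, scaled with TMM factors over all 16 libraries) in floxed males and between 34.0 and 36.9 CPM in LKO males (exact permutation p = 0.0286, two-sided, the smallest that 70 regroupings allow). In females it lay between 52.4 and 64.0 CPM in floxed and between 36.6 and 39.8 CPM in LKO livers (exact permutation p = 0.0286, two-sided). The libraries held 30495505 to 36496193 counts assigned to genes. Hepatocyte markers summed to 77586 to 88036 CPM in floxed and 52901 to 73746 CPM in LKO females, with Alb and Ttr lower and Hnf4a and Tat higher among 14 markers, and to 82458 to 103382 CPM in males. The first principal component of the females placed floxed 4 and LKO 7 closest to the opposite genotype, and floxed males 1 and 2 bear library numbers outside the series of the others. The titles give each library its own number within its sex, which was read as 1 animal per library. On that reading the p-values below measure the spread between animals within a group. In whole liver, fewer cells of a type and less RNA per cell cannot be told apart.

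Per kilobase of exon the members covered a wide range of levels in floxed livers. P4hb, the protein disulfide isomerase that also serves prolyl hydroxylase, was highest at 465 CPM per kilobase in floxed males and 439 in floxed females. In floxed males it was followed by Herpud1 (246 CPM per kilobase), Calr, Hspa5 (173) and Hsp90b1 (163), and Calr had 177 CPM per kilobase in floxed females. Creb3l3, which encodes the liver-enriched factor CREBH, was the highest of the regulators, with 130.5 CPM per kilobase in floxed males and 145 in floxed females. Atf3, Derl3, Chac1 and Srprb lay between 1.5 and 2.53 CPM per kilobase in both sexes, and Asns, encoding asparagine synthetase, was lowest at 0.0521 in floxed males and 0.112 in floxed females.

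**Figure D1:**
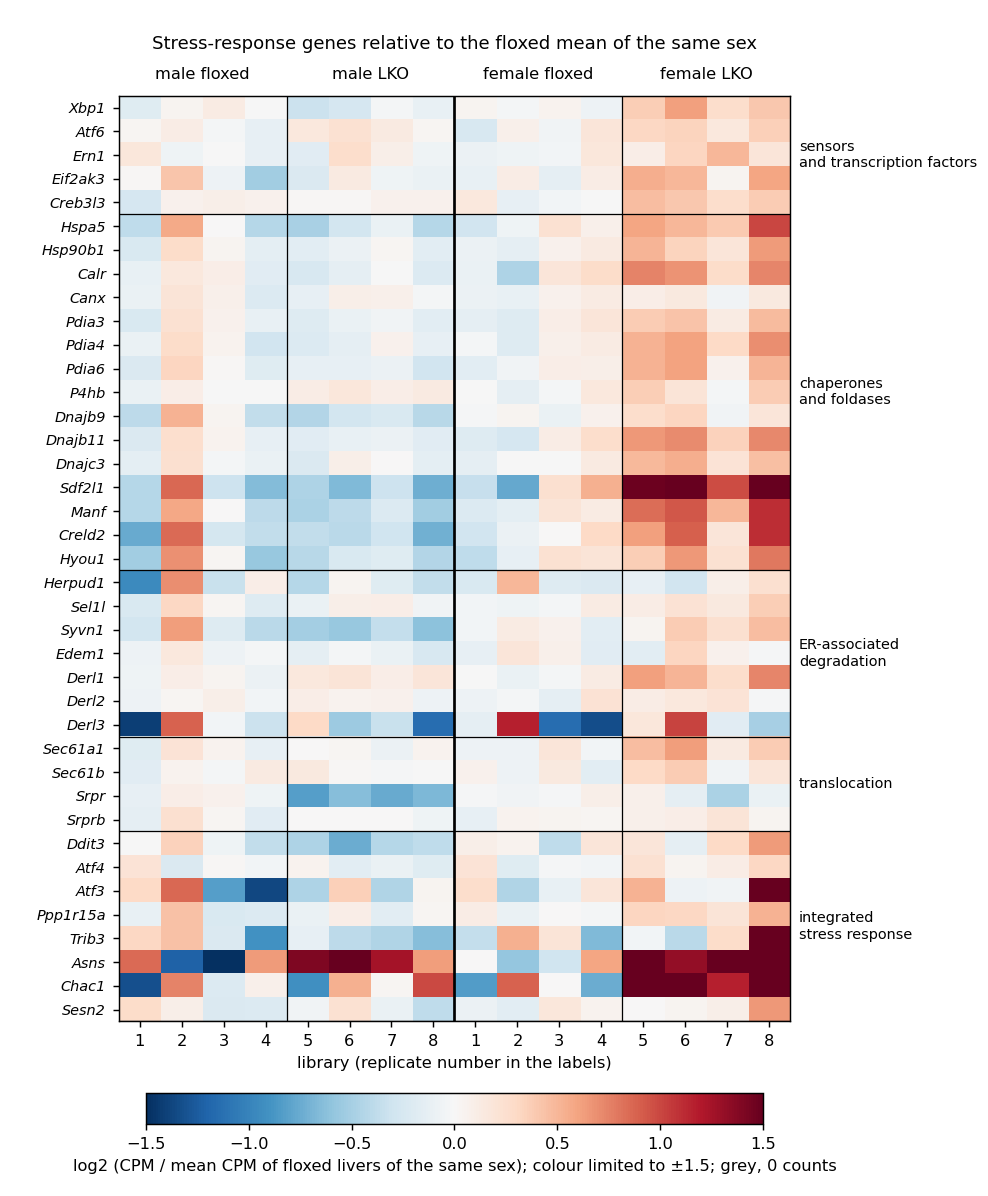
Colour gives the log2 ratio of each library's CPM to the mean CPM of the floxed livers of the same sex, for the 39 genes (rows, by role) and 16 libraries (columns, by group and replicate number). The LKO females are mostly red, least so in LKO 7, and floxed male 2 is redder than the other floxed males.

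In LKO females 13 members were higher than in floxed females, Sdf2l1, Manf and Chac1 among them, and in LKO males 1 member, Srpr, was lower and none was higher. These 13 of the 39 members rose and 0 fell in females at an adjusted p under 0.05 (edgeR quasi-likelihood test, Benjamini-Hochberg over 15432 genes), against 4.44% of all genes tested that rose and 4.85% that fell. The 13 were 2 of 5 sensors and transcription factors, 7 of 15 chaperones and foldases, 1 of 7 degradation factors, 1 of 4 translocation factors and 2 of 8 integrated stress response genes. Asns, among the latter, was barely expressed and passed the count filter through the LKO females, as given below. The estimate was above 0 for 37 of the 39 members, compared with 50.2% of all genes, and the median log2 fold change was 0.38 for the members and 0.00 for all genes. In 15 members every LKO female was above every floxed female, which held for 8.04% of all genes. Since the list was chosen with earlier results known, these shares, here and below, describe the members and do not test the list.

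In males 38 members could be tested, since Asns had too few counts. None rose and Srpr fell, where 0.528% of 15355 genes rose and 0.514% fell. At an unadjusted p under 0.05 the edgeR test gave 4 of 38 members, 1 of them higher, where 12.3% of all genes passed in either direction, and DESeq2 and limma-voom also called Srpr as the only member. The estimates lay below 0 for 27 of the 38, with a median of -0.10 against -0.01 for all genes, of which 48.4% had estimates above 0.

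The LKO effect was more positive in females than in males for 7 members, Xbp1, Calr, Pdia4, Dnajb11, Sdf2l1, Manf and Srpr, and less positive for 0 (edgeR, 16 libraries, adjusted p under 0.05). Over all 16126 genes the effect was more positive in females for 1.97% and less positive for 2.45%. At an unadjusted p under 0.05 the test gave 24 members in females and 22 for the difference, all of them higher, where 13.5% and 10.1% of all genes were higher at that p. All 39 estimates of this difference were above 0, as were 51.7% of those of all genes. Over both sexes together Atf6, Creb3l3, Derl1, Asns and Chac1 rose and Srpr fell, where 4.05% of all genes rose and 4.5% fell.

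The number of members that rose in females varied with the libraries used, as did the number of all genes that rose. It dropped to 2 when floxed 1 was omitted, to 3 for floxed 2, to 5 for floxed 3 or LKO 5, to 4 for LKO 6 and to 6 for LKO 8. It reached 20 when LKO 7 was omitted and 23 when floxed 4 and LKO 7 both were. Of all genes tested, 685 rose in the reported fit. Without floxed 1, 2 and 3 this number was 193, 221 and 291, and without LKO 5, 6 and 8 it was 259, 314 and 347. Without LKO 7 it was 1079, and without floxed 4 and LKO 7 it was 1514. Sdf2l1 and Manf were called in each of these fits, and each of the other 11 members lost its call in 3 to 7 of the 8 fits without 1 library. The count for the difference was 3 without female floxed 1, 4 without male LKO 5, 15 without female LKO 7 and 3 without male floxed 1 and 2. Over all genes it was 167, 192, 628 and 93 in these fits, and 318 in the reported fit. Over both sexes the count of members that rose was 2 or 3 without any 1 library other than female floxed 4 (5), female LKO 7 (10) or male floxed 2 (12). Of all genes 653 rose over both sexes in the reported fit. Without female floxed 4, female LKO 7 or male floxed 2 they numbered 938, 1031 and 604, and 359 to 589 without any other library.

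**Figure D2:**
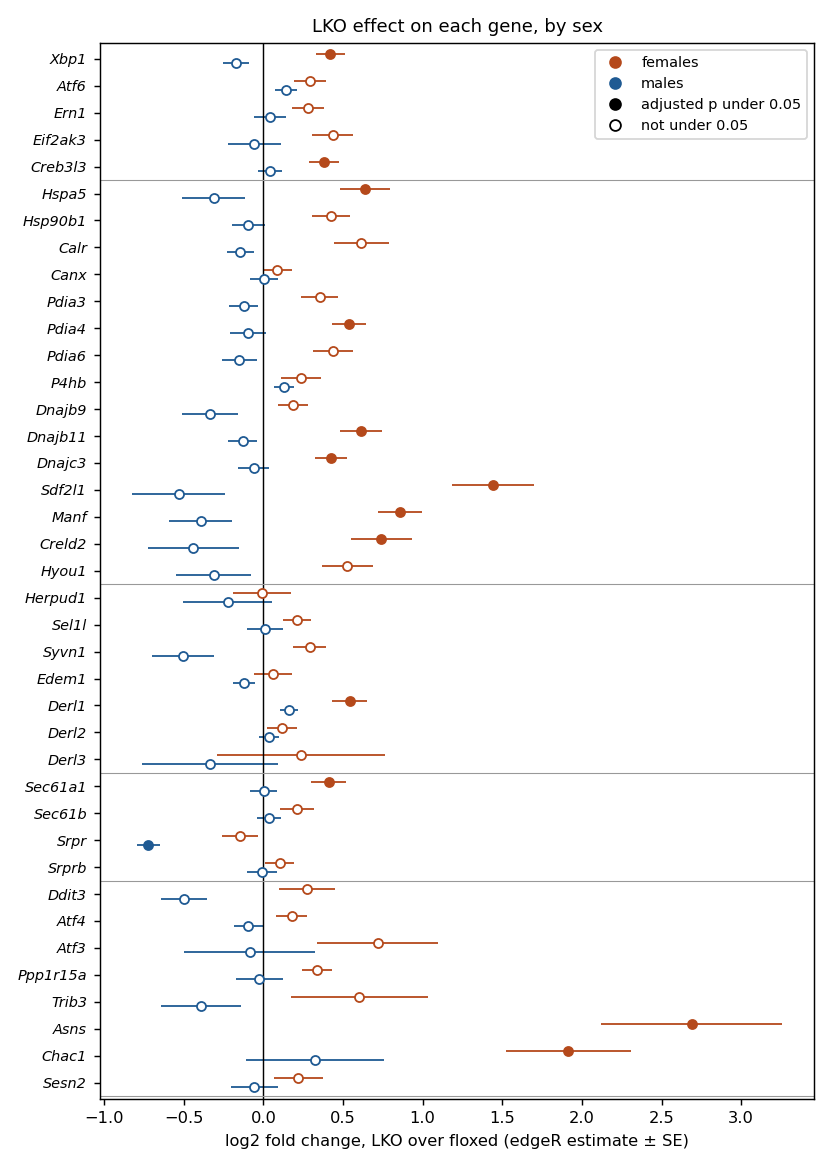
The log2 fold change of LKO over floxed livers (x axis) is shown for each member by sex, with bars for 1 standard error and filled points for an edgeR adjusted p under 0.05. The 13 filled points of females lie at 0.38 or above, and the filled point of males is Srpr at -0.72.

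Among the 5 sensors and transcription factors, Xbp1 and Creb3l3 rose in LKO females and none was called in males. Xbp1 (ENSMUSG00000020484, mm10 chr11:5520659-5525893) encodes the factor that IRE1 activates by splicing its messenger. It measured 165, 157, 166 and 152 CPM in floxed females 1 to 4 and 207, 246, 192 and 212 CPM in LKO females 5 to 8. Every LKO female lay above every floxed female, and the log2 fold change was 0.42 (SE 0.09, edgeR adjusted p = 0.023). Floxed males had 154, 180.0, 191 and 174 CPM and LKO males 140.1, 147, 171 and 162 CPM, so the male groups overlapped (log2 fold change -0.17, edgeR adjusted p = 0.445). The difference between the effects was 0.59 (SE 0.12, edgeR adjusted p = 0.0149), and it was called in all 16 fits without 1 library. In females alone Xbp1 lost its call in 6 of the 8 fits without 1 library (adjusted p up to 0.0744).

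Creb3l3 (chr10:81084324-81098874) encodes CREBH, an ER-anchored factor that is released by cleavage and acts on acute-phase and lipid genes in liver. Floxed females had 488, 402, 427 and 437 CPM and LKO females 604, 582, 528 and 571 CPM, with no overlap (log2 fold change 0.38, SE 0.09, edgeR adjusted p = 0.0351). Floxed males had 331, 413, 418 and 412 CPM and LKO males 399.8, 397, 410.2 and 411 CPM. Apart from floxed male 1, which was low, the males of both genotypes lay within a narrow band. The effects of the sexes differed by 0.34 (SE 0.12, edgeR adjusted p = 0.107).

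The kinase and protease-activated sensors had higher estimates in females without passing the test. Atf6 measured 61.1, 75.7, 69.4 and 81.7 CPM in floxed and 89.0, 90.9, 80.5 and 92.4 CPM in LKO females (log2 fold change 0.29, edgeR adjusted p = 0.092). In males Atf6 had 74.0, 78.2, 71.0 and 66.2 CPM in floxed and 80.7, 85.1, 79.5 and 74.0 CPM in LKO livers (0.14, edgeR adjusted p = 0.44). The groups overlapped in each sex, and over both sexes Atf6 rose by 0.22 (SE 0.06, edgeR adjusted p = 0.0341). This call was lost in 11 of the 16 fits without 1 library (adjusted p up to 0.0768) and with library totals (0.102). Eif2ak3, encoding PERK, had 13.8, 16.1, 13.5 and 16.0 CPM in floxed females against 21.7, 21, 15.3 and 22.4 CPM in LKO females, where only LKO 7 fell inside the floxed range (0.44, edgeR adjusted p = 0.0598). In males it had 17.5, 23.0, 16.4 and 12.0 CPM in floxed and 14.8, 18.9, 16.5 and 16.1 CPM in LKO livers (-0.06, edgeR adjusted p = 0.94). Ern1, encoding IRE1, had 57.7, 58.9, 59.8 and 69.4 CPM in floxed and 65.9, 76.9, 86.7 and 69.5 CPM in LKO females (0.28, edgeR adjusted p = 0.109). Its values in males were 59.1, 50.1, 52.4 and 48.3 CPM in floxed and 46.6, 63.1, 55.9 and 50.3 CPM in LKO livers (0.04, edgeR adjusted p = 0.929). For both kinases the male groups overlapped.

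The promoters of chaperone genes are known for the ER stress response element (ERSE), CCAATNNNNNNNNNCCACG, at which NF-Y holds the CCAAT end and ATF6 or XBP1 the CCACG end. It was searched on both strands in RefSeq windows of the GRCm38.p6 build (the mm10 assembly) that run from 250 bases before to 50 bases after the annotated start. Such windows were at hand for 34 of the 39 members, and 9 of the 34 (26.5%) held an ERSE, against 37 of all 27025 genes (0.137%). The copies are printed because they show which members carry the element and how the spacer between its ends varies. Each is written 5′ to 3′ from the CCAAT end, with the fixed letters in capitals and the spacer in lower case.
Hspa5: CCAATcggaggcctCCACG
Hsp90b1, distal copy: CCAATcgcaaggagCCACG
Hsp90b1, proximal copy: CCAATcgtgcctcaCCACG
Calr: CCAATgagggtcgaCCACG
Canx: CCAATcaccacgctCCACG
Pdia6: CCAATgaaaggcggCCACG
Dnajc3: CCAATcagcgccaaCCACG
Creld2: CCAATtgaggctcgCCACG
Syvn1: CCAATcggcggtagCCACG
Derl3: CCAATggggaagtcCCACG
Their first bases lie between 212 (Hsp90b1, distal) and 44 (Syvn1) bases before the start, and that of Hspa5 65 bases before it, at chr2:34772025-34772043 on the plus strand. These starts are those of RefSeq. GENCODE M21 starts Hspa5 at chr2:34771970, so there its element lies within the annotated gene. In Calr, Creld2, Derl3 and the proximal copy of Hsp90b1 the element runs on the strand opposite to the gene. A second form, ERSE-II, with the letters ATTGGNCCACG, was found in Herpud1 and Dnajb11, 5.88% of the 34 members against 0.0444% of all genes. In Dnajb11 it lies after the annotated start. The unfolded protein response element core TGACGTGG and 1 form of the amino acid response core, TGATGNAAT, were in no member window, and in 0.714% and 1.08% of all genes. The last letter of the latter was fixed as T. Forms ending in another letter were not searched, so their absence from the members is not shown.

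The stretches around the element are shown for Creld2, Dnajc3 and Calr, which carry it and were called in females or in the difference between the sexes, and for Herpud1 as the example of ERSE-II. They are on the strand of each gene, where an opposite-strand ERSE reads CGTGG first and ATTGG last, and capitals again mark the fixed letters. Positions are chr15:88819495-88819563 (plus) for Creld2, chr14:118937802-118937870 (plus) for Dnajc3, chr8:84847050-84847118 (minus) for Calr and chr8:94386352-94386412 (plus) for Herpud1.
Creld2: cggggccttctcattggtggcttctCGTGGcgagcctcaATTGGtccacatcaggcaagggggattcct
Dnajc3: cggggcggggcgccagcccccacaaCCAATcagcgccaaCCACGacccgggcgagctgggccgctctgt
Calr: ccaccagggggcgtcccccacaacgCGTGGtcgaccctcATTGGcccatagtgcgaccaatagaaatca
Herpud1: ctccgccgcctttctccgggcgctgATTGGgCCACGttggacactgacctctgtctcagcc
Called members were found both with and without the element. In females 3 of the 9 members with an ERSE rose (Hspa5, Dnajc3 and Creld2), as did 7 of 25 members whose windows held none, Sdf2l1 and Pdia4 among them. Of the other 28 genes with an ERSE, 11 could be tested in females and 0 were called. These matches describe letters in a window of 300 bases and not binding.

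Among the 15 chaperones and foldases the estimate in females was above 0 for all 15, with a median log2 fold change of 0.53. Sdf2l1 (chr16:17130138-17132383) encodes an ER protein that works with DnaJ co-chaperones to keep BiP clients soluble. It measured 7.03, 5.27, 10.6 and 12.9 CPM in floxed females and 24.9, 27.4, 17.6 and 27.5 CPM in LKO females. The lowest LKO female, LKO 7, was still above the highest floxed female, and the log2 fold change was 1.44 (SE 0.26, edgeR adjusted p = 0.0123). In males Sdf2l1 had 11.2, 27.3, 12.1 and 9.62 CPM in floxed and 10.9, 9.49, 12.1 and 9.07 CPM in LKO livers (-0.53, SE 0.29, edgeR adjusted p = 0.509). Floxed male 2 alone reached the level of the LKO females. The effects of the sexes differed by 1.98 (SE 0.43, edgeR adjusted p = 0.017).

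Manf (chr9:106838312-106891979) encodes a small secreted ER protein that binds BiP. It measured 34.0, 35.4, 44.7 and 42.8 CPM in floxed females and 70.2, 75.0, 55.5 and 84.6 CPM in LKO females. The groups were apart, LKO 7 being the nearest to the floxed range, and Manf rose by 0.86 (SE 0.14, edgeR adjusted p = 0.00888). Floxed males had 54.2, 109.6, 73.2 and 55.8 CPM and LKO males 52.8, 55.9, 63.5 and 50.8 CPM (-0.39, SE 0.20, edgeR adjusted p = 0.467). The difference between the effects, 1.25 (SE 0.26, edgeR adjusted p = 0.0152), was called without any 1 of the 16 libraries and without male floxed 1 and 2. Within its annotated span Manf overlaps Rbm15b on the same strand (0.17 in females, edgeR adjusted p = 0.248) and, on the opposite strand, Dcaf1 (0.06, 0.709) and 4930524O07Rik. The last of these rose in females with Manf (0.75, SE 0.19, edgeR adjusted p = 0.0413), and its difference between the sexes was 1.09 (edgeR adjusted p = 0.0572). Since the strand setting of the authors' counting is not given in the sources used here, reads of Manf and of 4930524O07Rik cannot be told apart with certainty.

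Dnajb11 and Pdia4 followed. Dnajb11, which encodes the BiP co-chaperone ERdj3, had 56.9, 54.8, 70.6 and 78.2 CPM in floxed and 102, 106, 82.8 and 107 CPM in LKO females (0.61, SE 0.13, edgeR adjusted p = 0.023). In floxed males Dnajb11 had 69.1, 94.9, 82.7 and 73.3 CPM and in LKO males 71.4, 74.0, 75.5 and 71.3 CPM, all 4 of the latter inside the floxed range. Pdia4, encoding the disulfide isomerase ERp72, had 149, 132, 159.5 and 165 CPM in floxed and 218, 231, 187 and 246 CPM in LKO females, with no overlap (0.54, SE 0.11, edgeR adjusted p = 0.0187). In males Pdia4 had 164, 213, 182 and 144 CPM in floxed and 153, 159.9, 184 and 161 CPM in LKO livers, and the groups overlapped. The effects of the sexes differed by 0.74 (SE 0.17, edgeR adjusted p = 0.0205) for Dnajb11 and by 0.64 (SE 0.16, edgeR adjusted p = 0.0352) for Pdia4. Without male floxed 1 and 2 neither difference was called (edgeR adjusted p = 0.0598 for Dnajb11 and 0.126 for Pdia4). Of the 16 fits without 1 library, the call was lost in 1 for Dnajb11 (female floxed 1) and in 10 for Pdia4, and that of Pdia4 also with library totals.

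**Figure D3:**
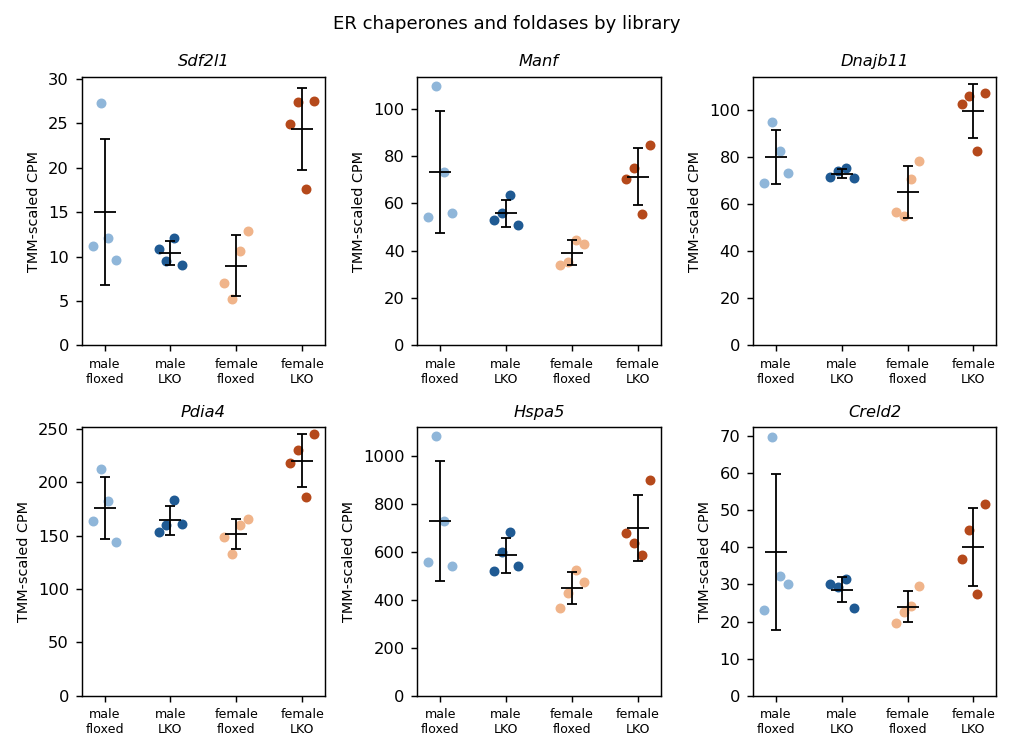
Points are single libraries, with TMM-scaled CPM on a linear axis from 0, horizontal lines are group means and bars are SD (n = 4 per group), for 6 chaperone and foldase genes. Sdf2l1, Manf, Dnajb11, Pdia4 and Hspa5 show LKO females above all floxed females, and floxed male 2 is the highest floxed male in each panel.

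Hspa5, encoding BiP, the central ER chaperone and a repressor of the sensors, rose in females from 449.9 ± 67.3 to 702 ± 138 CPM (SD, n = 4 each, log2 fold change 0.64, SE 0.16, edgeR adjusted p = 0.0341). Floxed females ranged from 367 to 526 and LKO females from 590.0 to 901 CPM, without overlap. Dnajc3, the co-chaperone p58IPK, went from 204 ± 15.4 to 275 ± 27.3 CPM (0.42, edgeR adjusted p = 0.0302). Creld2, encoding a secreted protein that ER stress is known to induce, went from 24.0 ± 4.14 to 40.2 ± 10.5 CPM (0.74, edgeR adjusted p = 0.0397), with LKO 7 (27.3 CPM) below floxed 4 (29.6 CPM). Its call was lost in the 16-library fit (edgeR adjusted p = 0.0688). The lectin chaperone Calr went from 511 ± 110.4 to 784 ± 112 CPM and just missed the threshold in females (0.62, edgeR adjusted p = 0.0505), although its effect exceeded that in males by 0.76 (SE 0.20, edgeR adjusted p = 0.0405). That difference was lost in 12 of the 16 fits that left out 1 library, with adjusted p up to 0.0884.

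Of the chaperones without a call in females, Hsp90b1 (the ER form of HSP90) and Hyou1 (an exchange factor of BiP) had estimates of 0.42 and 0.53 and groups that did not overlap. Pdia6 (0.44), Pdia3 (0.35), P4hb (0.24) and Dnajb9 (0.18) had overlapping groups, as did Canx, the membrane-bound lectin chaperone, which had the smallest estimate at 0.09. In males 13 of the 15 estimates lay below 0, from -0.53 (Sdf2l1) to 0.13 (P4hb), and 0 were called.

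Markers of other liver cells were set beside these rises, in a fit where 4.44% of all genes rose and 4.85% fell in females. In females 9 of 13 sinusoidal endothelial markers were lower in LKO livers, their sum lying between 345 and 380.5 CPM in floxed and between 257 and 321 CPM in LKO females. Plasma and B cells, whose ER is large, had 1 of 11 tested markers higher (Igkc), and the summed level was 32.7 to 45.7 CPM in floxed and 33.2 to 44.3 CPM in LKO females, with Tnfrsf17 at 0 in all LKO females. Of 11 stellate cell markers Reln (-0.57) and Lrat (-0.74) were lower, and the sum was 513 to 605 CPM in floxed and 449 to 490.0 CPM in LKO females, without overlap. Of 6 tested cholangiocyte markers Epcam was lower (-0.87), with sums of 41.9 to 61.5 and 33.4 to 47.1 CPM. None of 9 tested monocyte and neutrophil markers was called, the sum ranging from 16.3 to 91.5 CPM in floxed and from 31.6 to 129 CPM in LKO females, and none of 13 macrophage or 10 T and NK cell markers was called. Mitochondrial transcripts made up 3.31 to 4.26% of counts in floxed and 2.40 to 3.10% in LKO females, and 5.33 to 6.05% in males. The part of these in the rises was not tested.

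Within ER-associated degradation, which returns misfolded proteins to the cytosol for the proteasome, 1 of 7 members rose in females. Derl1 (chr15:57869502-57892448), encoding the channel protein derlin-1, had 132, 123, 130.3 and 145 CPM in floxed and 204, 188, 159.6 and 221 CPM in LKO females (0.54, SE 0.11, edgeR adjusted p = 0.0181). No values overlapped in females. Floxed males had 123, 138, 132 and 121 CPM and LKO males 143, 147, 138 and 146 CPM, a higher but uncalled level (0.16, SE 0.06, edgeR adjusted p = 0.275). Over both sexes the rise was 0.35 (SE 0.06, edgeR adjusted p = 0.00282) and it was called in every fit with 1 library left out.

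The other degradation factors did not pass the test in either sex. Syvn1 (the ubiquitin ligase HRD1), Sel1l (its partner) and Edem1 (a mannosidase-like lectin) had estimates of 0.29, 0.21 and 0.06 in females and of -0.51, 0.01 and -0.12 in males. Herpud1, encoding a scaffold of the HRD1 complex, was 338 ± 92.1 CPM in floxed and 337 ± 54.6 CPM in LKO females (SD, n = 4 each, estimate -0.01). Derl2 and Derl3, the relatives of Derl1, had estimates of 0.11 and 0.23, and Derl3 varied 5.61-fold among the floxed females. Herpud1 and Derl3 were highest in female floxed 2 among the floxed females, at 476 and 8.82 CPM.

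The translocation factors held the member that fell in males. Srpr (ENSMUSG00000032042, chr9:35200175-35247973, plus strand) encodes the alpha subunit of the receptor that docks the signal recognition particle at the ER membrane. It measured 158, 185, 181 and 165 CPM in floxed males and 96.9, 110.4, 102 and 108 CPM in LKO males. The 2 sets of values lay far apart, and Srpr fell by 0.72 on the log2 scale (SE 0.07, edgeR adjusted p = 0.00112). That call held in each of the 8 fits without 1 library (adjusted p up to 0.008) and in each of the 10 other settings tried. In females Srpr had 186, 181, 185 and 199 CPM in floxed and 199, 172, 135 and 174 CPM in LKO livers, with LKO 6, 7 and 8 below the floxed range and LKO 5 inside it (-0.14, SE 0.11, edgeR adjusted p = 0.441). The effects of the sexes differed by 0.58 (SE 0.13, edgeR adjusted p = 0.0224), a call lost without female floxed 1, male LKO 5 or male LKO 7 (adjusted p up to 0.054) and without male floxed 1 and 2 (0.0721).

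The partner subunit did not move with Srpr. Srprb, which anchors it in the membrane, was 10.8 ± 1.44 CPM in floxed and 10.8 ± 0.233 CPM in LKO males (SD, n = 4 each, log2 fold change -0.01, SE 0.10). Sec61a1, the pore of the translocon, rose in females from 109.9 ± 9.94 to 146 ± 20.2 CPM (0.41, SE 0.11, edgeR adjusted p = 0.0479). Its groups overlapped, floxed 3 at 125 CPM being above LKO 7 at 121 CPM, and the call was lost in 7 of 8 fits without 1 library. Sec61b, a small translocon subunit, had an estimate of 0.21. The annotated span of Srpr overlaps Tirap, Foxred1 and Fam118b on the opposite strand, which had male log2 fold changes of -0.06, 0.06 and 0.08 and no call. In females Tirap rose (0.38, SE 0.10, edgeR adjusted p = 0.0478). The unknown strand setting applies to Srpr as well, and to Dnajb11 and Sec61a1. These overlap Gm30505 and Gm44170 on the opposite strand. Both had female estimates of 0.52 without a call (edgeR adjusted p = 0.0628 for Gm30505 and 0.167 for Gm44170).

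**Figure D4:**
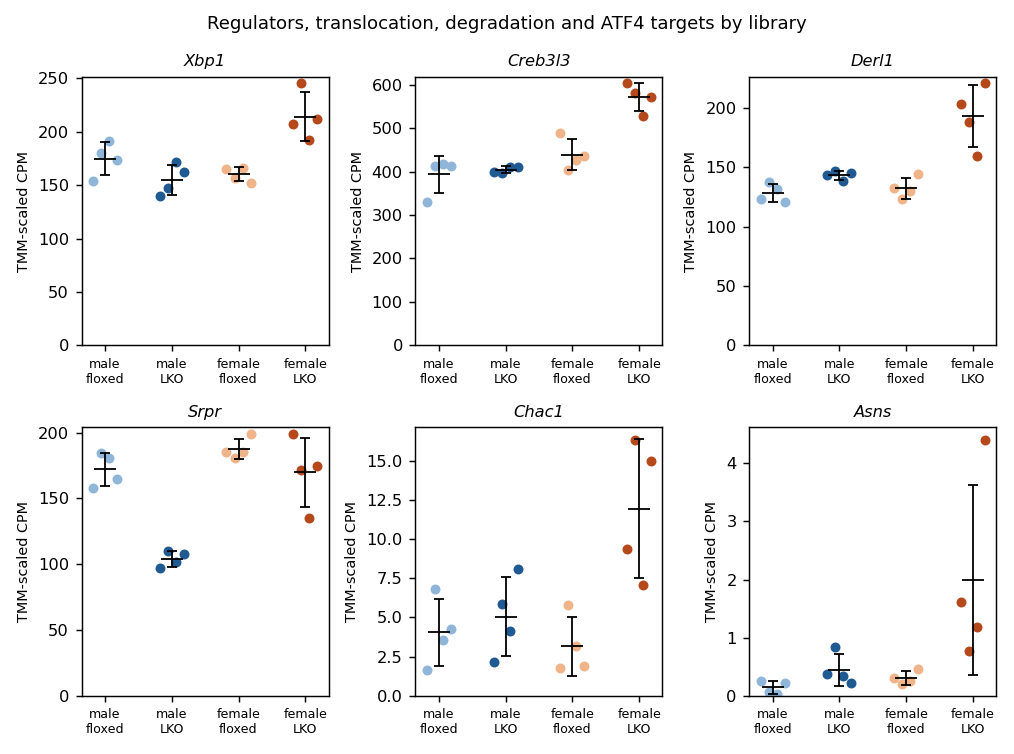
Points are single libraries, with TMM-scaled CPM on a linear axis from 0, horizontal lines are group means and bars are SD (n = 4 per group), for 3 regulators or degradation factors, Srpr and 2 ATF4 targets. LKO males are the low group for Srpr, and LKO females are the high group for Xbp1, Creb3l3, Derl1, Chac1 and Asns.

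In the integrated stress response, 2 of 8 members rose in females, Chac1 and Asns, and the other 6 were not called. Chac1 (chr2:119351229-119354381), encoding a glutathione-degrading cyclotransferase, had 1.76, 5.79, 3.15 and 1.88 CPM in floxed and 9.36, 16.3, 7.06 and 15 CPM in LKO females. There was no overlap, and the log2 fold change was 1.91 (SE 0.39, edgeR adjusted p = 0.0195). Floxed males had 1.63, 6.80, 3.53 and 4.27 CPM and LKO males 2.15, 5.86, 4.14 and 8.06 CPM (0.32, SE 0.43, edgeR adjusted p = 0.837). The male groups overlapped almost fully, and the effects of the sexes differed by 1.59 (SE 0.64, edgeR adjusted p = 0.172).

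Asns (chr6:7675169-7693254), which makes asparagine, was barely expressed. Floxed females had 0.308, 0.204, 0.249 and 0.462 CPM, or 7 to 15 counts, and LKO females had 1.61, 0.765, 1.19 and 4.40 CPM, or 24 to 144 counts. LKO 8 was the highest, all LKO females exceeded all floxed females, and the log2 fold change was 2.69 (SE 0.57, edgeR adjusted p = 0.0212). Asns passed the filter in females through the LKO group, since floxed 2 and 3 had 7 and 8 counts, under the minimum of 10. Its test thus depended on the group where it was high, and under the filter of 1 CPM in 4 libraries it was not tested. In males Asns had 0.258, 0.0615, 0.0296 and 0.222 CPM in floxed and 0.378, 0.846, 0.340 and 0.220 CPM in LKO livers. Over both sexes it rose by 2.15 (SE 0.45, edgeR adjusted p = 0.00915). This call held without any 1 library but was absent under the filter of 1 CPM in 4 libraries. The call in females alone was lost in 3 of the 8 fits without 1 library (edgeR adjusted p up to 0.0694).

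The other 6 members of this branch did not pass the test. Atf4, encoding the factor that drives it, was 92.1 ± 10.3 CPM in floxed and 104 ± 8.94 CPM in LKO females and 78.9 ± 9.60 and 73.9 ± 5.76 CPM in the males (SD, n = 4 each). Ddit3, encoding the factor CHOP, had 7.76 to 12.8 CPM in floxed and 5.98 to 7.70 CPM in LKO males. Those male groups did not overlap, with LKO below floxed, but the call was not reached (-0.50, SE 0.15, edgeR adjusted p = 0.173). Ppp1r15a, encoding the eIF2α phosphatase subunit GADD34, just missed the threshold in females with groups apart (0.34, SE 0.09, edgeR adjusted p = 0.0501). Trib3 and Atf3 were led by LKO female 8, at 24.6 and 10.4 CPM, and Sesn2, a regulator of mTORC1, was also highest there at 18.9 CPM. Their estimates in females were 0.60, 0.72 and 0.22, and their groups overlapped.

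Floxed male 2 and LKO females 7 and 8 stood out across the members. Floxed male 2 was the highest floxed male for 31 of the 39 members, where it was highest for 25.3% of all genes, and its median log2 ratio to the floxed mean was 0.25 against -0.15, 0.00 and -0.17 in floxed males 1, 3 and 4. Its Hspa5 was 1085 CPM beside 542 to 731 CPM in the other floxed males, and its Herpud1, Creld2 and Syvn1 were 929.6, 69.7 and 155 CPM (chosen after their values were seen). Without it 23 of 39 male estimates were above 0 and 16 below, in place of 11 and 27 of 38, and that of Hspa5 went from -0.31 to -0.06. Among LKO females the median log2 ratios were 0.37, 0.39, 0.19 and 0.47 for LKO 5 to 8. LKO 7 was the lowest LKO female for 25 members and LKO 8 the highest for 24, where these libraries were lowest and highest for 26.4% and 26.5% of all genes. The median coefficient of variation of the members was 16.6% in floxed males, where it was 12.2% over all genes. In floxed females, LKO females and LKO males it was 10.1%, 13.5% and 8.14%, below the 12.6%, 13.8% and 9.18% of all genes.

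The levels of floxed females and floxed males were also compared. Of the 39 members 7 were lower in floxed females and 0 higher, where 11.6% of all genes were lower and 11.3% higher (edgeR, 16 libraries). At an unadjusted p under 0.05 there were 16 members, 2 of them higher, where 36.0% of all genes passed in either direction. Manf was lower by a log2 value of -0.90 (SE 0.19, edgeR adjusted p = 0.00291) and Hspa5 by -0.70 (SE 0.20, edgeR adjusted p = 0.0167), and both had groups that did not overlap. The call of Manf held in every fit tried. That of Hspa5 was lost without male floxed 2 or female floxed 1 (edgeR adjusted p up to 0.062) and without male floxed 1 and 2 (0.0753). Syvn1 (-0.68), Sec61b (-0.40), Srprb (-0.37), Herpud1 (-0.77) and Pdia3 (-0.31) were the others. Herpud1 and Pdia3 lost their calls in 9 and 11 of the 16 fits without 1 library. The 15 chaperones and foldases all had estimates below 0, where 49.8% of all genes had estimates above 0. Without male floxed 2 or female floxed 1 the count was 4, and without male floxed 1 it was 12. Of all genes 1872 were lower in the reported fit, 1540 and 1545 without male floxed 2 or female floxed 1, and 1829 without male floxed 1. The sexes were deposited in separate tables, and a difference of sex and a difference between the tables cannot be told apart. For Hspa5 and Manf the LKO females (702 ± 138 and 71.3 ± 12.1 CPM) had means near those of the floxed males (729.7 ± 252 and 73.2 ± 25.8 CPM, SD, n = 4 each). Floxed male 2 was the highest floxed male for both, and the floxed male medians were 646 and 64.5 CPM. Not all members that rose in females lay near the floxed males. Creld2 did (40.2 and 38.8 CPM), but LKO female means of Xbp1, Pdia4 and Sdf2l1 were 214, 220 and 24.4 CPM, above 175, 176 and 15.1 CPM in floxed males.

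Lists of related genes were read in the same fits, where 4.44% of all genes rose and 4.85% fell in females. In females 4 of 20 tested genes of further ER folding factors and KDEL receptors rose, among them Txndc11 (0.62), Pdia5 (0.64) and Tmem214 (0.40), and the list's median log2 fold change was 0.23. Of vesicle transport between ER and Golgi 2 of 20 rose (Tmed9 at 0.37 and Surf4 at 0.39). None of 26 translocon, glycosylation and signal peptidase genes and none of 14 further degradation factors was called, with medians of 0.14 and 0.18. Of the relatives and processing factors of the sensors 1 of 19 rose, Creb3l2 at 0.62. That share is near the one of all genes, and the list's median was 0.03.

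Genes downstream of ATF4 were read next, beside the same shares of all genes in females (4.44% higher and 4.85% lower). Of 17 further ATF4 targets tested in females, Slc38a2, a transporter of neutral amino acids, rose by 1.05 (SE 0.21, edgeR adjusted p = 0.0179) and Vldlr, a lipoprotein receptor, fell by 1.33 (SE 0.32, edgeR adjusted p = 0.0311). Of 20 aminoacyl-tRNA synthetases 2 rose, Sars at 0.43 and Nars at 0.37, and none of 10 serine and one-carbon enzymes was called. Cytosolic heat shock genes had 2 of 20 higher (Bag3 at 0.49 and Hspb8 at 0.49), and immediate early genes 2 of 15 (Nr4a1 at 1.86 and Ier3 at 1.58).

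Genes known to be bound by CREBH in liver had 4 of 12 members higher in females, where 4.44% of all genes were higher, and a median of 0.77. Apcs, encoding serum amyloid P, rose by 2.65 (SE 0.41, edgeR adjusted p = 0.00767), Crp, encoding C-reactive protein, by 1.08 (SE 0.16, edgeR adjusted p = 0.00705), and Pck1, encoding the gluconeogenic PEPCK, by 0.77 (SE 0.18, edgeR adjusted p = 0.0278). The effects of the sexes differed for Apcs by 2.41 and for Crp by 1.02 (edgeR adjusted p = 0.0112 and 0.00645). In males 1 gene of these lists was called, Cidec, which encodes a lipid droplet protein and rose by 1.14 (SE 0.18, edgeR adjusted p = 0.0147). Of all genes 0.528% rose and 0.514% fell in males.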

How the data were processed

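The authors deposited 1 table of whole-number counts per gene for each sex, 8 libraries each, with Ensembl identifiers. Per the submitters' processing notes the build was mm10. RNA came from TRIzol extraction and directional poly(A) libraries per the labels' protocols, and the aligner, the counter and the strand setting are not given in the sources used here. Symbols, lengths and positions came from GENCODE M21, and promoter windows from RefSeq (GRCm38.p6).

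Each sex was fitted alone in R 4.3.3 with edgeR 4.0.16 (quasi-likelihood test, TMM scaling, filterByExpr with minimum count 10 and minimum total 15). All 16 libraries were fitted together, 1 coefficient per group, for the difference of the effects, the effect over both sexes and the floxed groups. A call is a Benjamini-Hochberg adjusted p under 0.05 over all genes tested. Matr3 also had an exact permutation test. Alternatives were DESeq2 1.42.0, limma-voom (limma 3.58.1), other scalings, no filter, 1 CPM in 4 libraries, robust dispersion, the 16-library fit, a replicate block, and omission of libraries. The procedure was tested on simulated data. No pair of replicate libraries agreed within sampling noise.

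The 39 genes, the lists and the alternatives were chosen with earlier results of these data known. Values per library are given for sensors and for members called in females, in males or in their difference, up to 4 per role, and up to 3 called genes per further list are named.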

Additional observations from a re-analysis of the deposited data

Results flagged for a closer look

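The effect of the knockout differed between females and males for 7 members, in log2 units by 0.59 for Xbp1, 0.76 for Calr, 0.64 for Pdia4, 0.74 for Dnajb11, 1.98 for Sdf2l1, 1.25 for Manf and 0.58 for Srpr (edgeR interaction test, adjusted p under 0.05).

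In 10 of 156 groups of 4 libraries, 1 library stood far from the others of its group by Dixon's criterion at the 95% level, which chance alone reaches in about 1 of 20 groups. Floxed male 2 was high for Sdf2l1 (27.3 CPM), Syvn1 (155 CPM) and Ppp1r15a (14.9 CPM), and floxed male 1 was low for Creb3l3 (331 CPM). Among floxed females, floxed 2 was high for Herpud1 (476 CPM), floxed 3 for Sec61a1 (125 CPM), and floxed 1 was low for Srprb (7.65 CPM). Among LKO females, LKO 7 was low for Calr (618 CPM) and LKO 8 high for Sesn2 (18.9 CPM). LKO male 8 was low for Srprb (10.4 CPM), in a group whose range was narrow.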

How the results depend on the processing

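Members that rose in females numbered 13 in the reported fit, 20 with DESeq2, 8 with library totals, 23 without female floxed 4 and female LKO 7 (added after the data were seen), and 2 to 20 without 1 library. Of all genes 685 rose in the reported fit, 1195 with DESeq2 and 449 with library totals. They numbered 1514 without female floxed 4 and female LKO 7, and 193 to 1079 without 1 library. Effects more positive in females than in males numbered 7 as reported, 17 with DESeq2, 2 with a replicate block, 15 without female floxed 4 and female LKO 7, 3 without male floxed 1 and 2, and 3 to 15 without 1 library. Over all genes such effects numbered 318 as reported, 623 with DESeq2 and 197 with a replicate block. They numbered 929 without female floxed 4 and female LKO 7, 93 without male floxed 1 and 2, and 163 to 628 without 1 library. Rises over both sexes numbered 5, then 8 with DESeq2, 11 without female floxed 4 and female LKO 7, and 2 to 12 without 1 library. Over all genes these rises numbered 653, then 1059, 1426, and 359 to 1031. Between the floxed groups 7 members were lower, 4 to 12 without 1 library, and 0 were higher, 1 with library totals and 0 to 1 without 1 library. Of all genes 1872 were lower, 1502 to 2049 without 1 library. Those higher numbered 1826, then 2460 with library totals and 1372 to 1858 without 1 library. The causes were not tested.

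The replicate numbers 1 to 8 are shared by the sexes and were not taken as pairs in the reported fits. Correlations of same-numbered deviations lay between -0.12 and 0.13, which does not settle whether the animals are paired. Under the block Manf and Chac1 were called, Manf alone of the 7 reported (adjusted p for Xbp1 0.0517).

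Sign changes were tallied for the sensors and for members called in females, in males or in their difference. Of these, 8 had male estimates that changed sign in at least 1 setting, none of them a call. Over all members more signs changed, since 23 of 39 male estimates were above 0 without male floxed 2, in place of 11 of 38. Without male floxed 1 and 2 the log2 values were 0.22 for Eif2ak3, -0.038 for Creb3l3, 0.0093 for Pdia4 and 0.0027 for Dnajc3. Sec61a1 was -0.0003 with library totals and -0.0002 with no filter. Without 1 library the male values ran from -0.044 to 0.10 for Ern1, -0.20 to 0.11 for Eif2ak3, -0.034 to 0.073 for Creb3l3, -0.18 to 0.0077 for Pdia4, -0.11 to 0.031 for Dnajc3, -0.62 to 0.0064 for Creld2, -0.053 to 0.077 for Sec61a1 and -0.0004 to 0.69 for Chac1. For Asns the counts limit the precision.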
